A study of Mus musculus with 8 samples.

Results

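The 4 Sync-Spdya fl/fl control testes of a series of 8 mouse testis RNA libraries are described here on their own, as the transcriptome of a testis synchronized at mid-late pachytene. The members were chosen by label: all 4 libraries marked as control, 1 whole testis library per mouse, out of 8 libraries in all, with the 4 knockout libraries used nowhere. The mice carried Spdya with loxP sites around an exon on both alleles, on a C57BL/6J background and without a Cre transgene, so that SpdyA, a protein that binds and activates cyclin-dependent kinases at meiotic telomeres, was still made. As neonates they received an inhibitor of retinoic acid synthesis followed by retinoic acid, the time of which is RA0. They also received tamoxifen, at RA day 7.5 and 8.5 in the sample labels, and the testes were collected at RA day 11.5. The controls therefore share the floxed alleles, the synchronizing drugs and tamoxifen, and no untreated or unsynchronized testis was measured.

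Spermatogenesis runs from spermatogonia, which divide by mitosis, through spermatocytes, which pass meiotic prophase I, to haploid round and elongating spermatids. At pachynema the homologous chromosomes are joined along their length by the synaptonemal complex, recombination is completed, and the X and Y chromosomes are packed into the sex body and transcriptionally silenced, a process called meiotic sex chromosome inactivation. Retinoic acid from Sertoli cells, the somatic cells that line the tubules and nurse the germ cells, starts spermatogonial differentiation and meiosis. Withholding and then supplying it brings the first germ cells into step, so that few cells older than spermatocytes should be present and Sertoli cells remain a large share of the tissue.

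The values are FPKM, in which the fragments assigned to each gene are divided by gene length and by a scaled library size. Between 13978342 and 17867570 fragments fell on genes in each library, and 96.8 to 97.3% of them on protein-coding genes. A single fragment on a 1-kilobase gene was therefore worth 0.0552 to 0.0763 FPKM. The libraries were not copies of each other: the most alike pair, replicates 2 and 3, differed by a median of 0.16 on the log2 scale over expressed genes, and the least alike pair, replicates 1 and 4, by 0.38. Replicate 1 stood apart. Its mitochondrially encoded genes took 0.446% of its protein-coding fragments against 3.02 to 3.44% in the other 3, and Gm23935, a short RNA gene on chromosome 16, took 0.370% of all fragments against 0.0175 to 0.151%. The median spread and the count of genes over 2-fold apart are therefore given with and without replicate 1. Means over the 4 testes include it. The labels name a column kit for RNA and the methods name Trizol, and no extraction or sequencing date is given.

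Of 22046 protein-coding genes, 12304 (55.8%) had a mean above 1 FPKM over the 4 testes and are called expressed below. A mean above 10 FPKM was reached by 5926 genes, above 100 by 258 and above 1000 by 8. At the other end 3442 genes had no fragment in any of the 4. The number of protein-coding genes above 1 FPKM ranged only from 12118 to 12349 between libraries, and 11602 genes were above 1 FPKM in every library. The median expressed gene had a mean of 9.47 FPKM. Spdya itself had 20.8, 21.0, 23.8 and 19.7 FPKM in replicates 1 to 4, above the median gene in every library.

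No small group of genes took over the RNA of these testes. The 100 most abundant protein-coding genes of each library held 11.7% ± 1.03 (SD, n = 4) of its protein-coding fragments, and it took 1606 ± 21.5 genes to hold 50% of them. Shares of fragments favour long genes. By summed FPKM, which corrects for length, the 100 most abundant held 19.9%. The share of the 10 most abundant genes was 2.27% in replicate 1 and 3.99 to 4.43% in the others, and this difference was carried by the mitochondrially encoded genes: without them the share was 2.12 to 2.18% in all 4 libraries.

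Of the 8 genes above a mean of 1000 FPKM, 7 were encoded by the mitochondrial genome, and the eighth was Eef1a1. The mitochondrial genome encodes 13 subunits of the respiratory chain and of ATP synthase. Mt-Co1, the catalytic subunit of cytochrome c oxidase, had 1751, 10662, 8921 and 9964 FPKM in replicates 1 to 4. Mt-Cytb, the core of complex III, had 515, 4820, 4734 and 4625 FPKM. Replicates 2 to 4 lay close together and replicate 1 lay far below them in both genes. No gene of the 13 was lower in another library than in replicate 1, and mt-Atp8 had no fragment in replicates 1 and 4. The 6 lower genes, mt-Co2, mt-Atp6, mt-Co3, mt-Nd3, mt-Nd4l and mt-Atp8, had means of only 1.06 to 86.9 FPKM. The table also lists unprocessed pseudogenes on chromosome 1 at similar levels, such as Gm28661 with 49.7, 128, 96.8 and 55.4 FPKM. Nuclear copies of mitochondrial DNA are nearly identical to their source, so how these fragments were divided is uncertain.

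**Figure D1:**
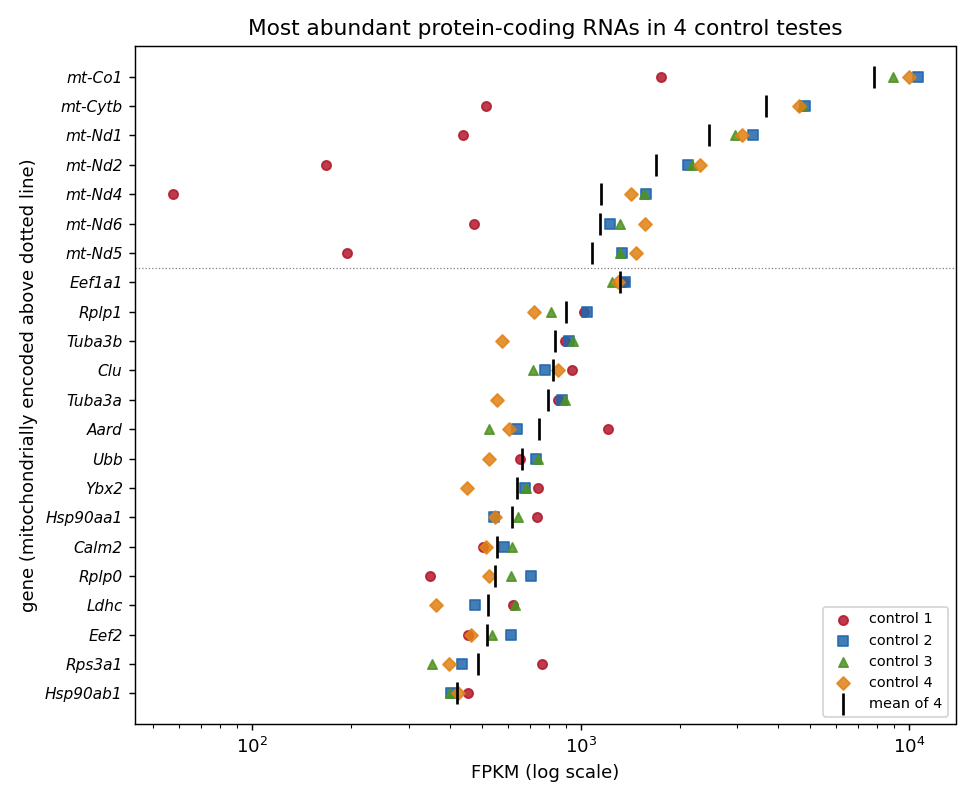
FPKM (log scale) of the 7 most abundant mitochondrially encoded genes and the 15 most abundant nuclear genes, with 1 point for each of the 4 control testes and a bar at their mean. The mitochondrially encoded genes of replicate 1 lie to the left of the other 3 (mt-Co1 at 1751 against 8921 to 10662 FPKM), while most nuclear genes keep all 4 points close together.

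Among nuclear genes the translation machinery came first. Eef1a1, which brings aminoacyl-tRNA to the ribosome, had 1358, 1368, 1250 and 1297 FPKM, a spread of 0.06 (SD) on the log2 scale. All 86 cytosolic ribosomal protein genes were above 1 FPKM and 43 were above 100 FPKM, with a median of 98.6 FPKM. They held 1.98% ± 0.170 (SD, n = 4) of protein-coding fragments and 22 places among the 100 most abundant nuclear genes. Rplp1 and Rplp0, which form the stalk of the large subunit, had means of 901 ± 158 and 548 ± 151 FPKM (SD, n = 4). Eef2, the translocation factor, had a mean of 517 FPKM. Single ribosomal genes still varied: the highest testis was over 2 times the lowest, with 0.1 FPKM added to both, for 28 of the 86, and for 4 of the 86 among replicates 2 to 4. Over all expressed genes the shares were 16.4% (percent called) and 4.33%.

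Beside them stood genes of the germ line and of Sertoli cells. Ybx2 (MSY2), a germ cell protein that binds and stores mRNA, had 743, 676, 684 and 449 FPKM. Clu, the secreted chaperone clusterin and an abundant Sertoli cell product, had 940, 777, 718 and 856 FPKM. Aard, on the Sertoli cell list, had 1215, 641, 525 and 603 FPKM, with replicate 1 well above the other 3. Tuba3b and Tuba3a, which encode testis alpha-tubulin and are near-identical copies whose fragments cannot be told apart with confidence, had means of 836 ± 173 and 795 ± 160 FPKM (SD, n = 4). Ubb, a polyubiquitin gene, had 664 ± 99.1 FPKM, Calm2, one of the calmodulin genes, 554 ± 54.6 FPKM, and the cytosolic chaperones Hsp90aa1 and Hsp90ab1 618 ± 91.8 and 420 ± 24.7 FPKM. Of the 100 most abundant nuclear genes, 6 were on the Sertoli cell list, 5 on the nuclear oxidative phosphorylation list, 4 on the pachytene list, 3 on the piRNA list and 59 on none of the 36 lists used.

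The germ cell stages were then read from marker lists. Spermatocyte genes were high and spermatid genes were near the floor in all 4 testes, as the label has it. Pgk2 and Ccna1, known from later pachytene, were low. Hist1h1t was low too, and so were histone cluster mRNAs as a class. What its RNA level says of the stage was not tested. By staining, the paper found H1t protein in most control pachytene cells shortly before this time. In a whole testis fewer cells of a type and less RNA per cell cannot be told apart. The 12 genes of the synaptonemal complex and meiotic axis had a median of 54.1 FPKM, and all 12 were expressed. Their median member stood at the 96.5th percentile of all protein-coding genes. Sycp1, the transverse filament of the complex, had 138, 135, 165 and 142 FPKM. Sycp3 and Sycp2, components of the lateral element, had means of 123 ± 34.6 and 111 ± 14.5 FPKM, and Syce1, a central element protein, 88.1 ± 8.83 FPKM (SD, n = 4). After each library was centred on its median expressed gene, the list level ranged by 0.17 on the log2 scale between testes, and by 0.33 with levels adjusted for GC content.

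The 15 pachytene markers had a median of 42.9 FPKM, with 13 expressed and 6 above 100 FPKM. Ldhc, the sperm form of lactate dehydrogenase, had 622, 478, 631 and 362 FPKM. Hspa2, the chaperone needed to leave pachynema, had 396, 451, 443 and 267 FPKM. Piwil1 (MIWI), which binds pachytene piRNAs, had 175, 198, 253 and 180 FPKM. Replicate 4 was the lowest library for Ybx2, Ldhc and Hspa2, and for 10 of the 13 expressed pachytene markers. The list's range between testes was 0.41 on the log2 scale, and 0.17 without replicate 4. The markers at the low end included some known from later pachytene and beyond. Pgk2, the sperm phosphoglycerate kinase, had 5.44, 4.07, 5.47 and 3.75 FPKM, and Ccna1, the cyclin of late spermatocytes, had 1.62, 1.71, 1.95 and 1.30 FPKM. Hist1h1t, the testis linker histone of mid-late pachytene, and Pou5f2, both named after their values were seen, had means of 0.279 ± 0.0531 and 0.462 ± 0.134 FPKM. Histone cluster mRNAs as a class were low here, with 12 of 67 genes expressed, a median of 0.19 FPKM and 8 genes without a fragment. Most histone cluster mRNAs lack a poly(A) tail, and what the library kit captured of such RNA was not tested.

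The promoters of the 3 most abundant pachytene markers are shown because MYBL1 (A-MYB) drives pachytene transcription, and they were searched for its motif. Each sequence is the strand of the gene, 250 bases before to 50 after the RefSeq start on GRCm38.p6, in lower case with the MYB motif TAACNG, on either strand, in capitals.
Ybx2, chr11:69935649-69935948, plus strand: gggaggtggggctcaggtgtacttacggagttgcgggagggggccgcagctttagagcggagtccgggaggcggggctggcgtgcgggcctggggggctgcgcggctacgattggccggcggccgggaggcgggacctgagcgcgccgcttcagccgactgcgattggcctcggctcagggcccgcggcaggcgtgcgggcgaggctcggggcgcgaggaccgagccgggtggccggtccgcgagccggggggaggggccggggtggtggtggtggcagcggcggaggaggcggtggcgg
Ldhc, chr7:46861013-46861312, plus strand: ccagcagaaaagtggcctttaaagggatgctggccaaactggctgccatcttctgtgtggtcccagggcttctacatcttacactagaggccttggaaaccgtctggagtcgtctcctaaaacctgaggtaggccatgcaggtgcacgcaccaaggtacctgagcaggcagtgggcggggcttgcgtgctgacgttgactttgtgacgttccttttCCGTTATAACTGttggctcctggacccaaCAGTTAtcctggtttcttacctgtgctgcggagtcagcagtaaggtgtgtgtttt
Hspa2, chr12:76404120-76404419, plus strand: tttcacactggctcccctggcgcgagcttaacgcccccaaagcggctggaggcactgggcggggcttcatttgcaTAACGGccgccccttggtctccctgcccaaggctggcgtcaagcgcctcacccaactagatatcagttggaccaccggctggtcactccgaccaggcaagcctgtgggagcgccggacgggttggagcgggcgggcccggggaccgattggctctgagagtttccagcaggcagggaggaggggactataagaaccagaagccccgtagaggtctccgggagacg
The Ldhc promoter held 3 matches, the Hspa2 promoter held 1 and the Ybx2 promoter held none. Of the 12 pachytene markers with a promoter in the RefSeq table, 7 (58.3%) held the motif, beside 19.1% of the 9716 expressed genes with a promoter and 23.1% of all 27025 promoters. Among the 100 most abundant nuclear genes, of which 75 had a promoter, the share was 17.3%. The motif of NRF1 stood in 13.3% of those 75, in 11.1% of expressed and in 4.80% of all promoters. The cAMP response element TGACGTCA stood in 5.33%, 3.37% and 1.84%. The longer RFX motif was in none of the 75, in 0.144% of expressed and in 0.126% of all promoters. These matches describe letters and not binding. The pachytene list was chosen with earlier results of these data known and includes Mybl1, so its share describes those 12 genes only. Mybl1 itself, which encodes MYBL1 and was named after its values were seen, had 17.7, 14.7, 18.8 and 16.7 FPKM.

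The piRNA machinery was as high as the synaptonemal complex. piRNAs are small RNAs that silence transposons and cleave transcripts in the germ line. All 15 genes of the pathway were above 10 FPKM, and the median was 49.6 FPKM. Ddx4 (VASA), the germ cell RNA helicase, had 259, 210, 231 and 201 FPKM, and Mael, which acts in the transposon pathway, had 209, 228, 253 and 171 FPKM. Piwil2 (MILI) had a mean of 141 ± 12.5 FPKM (SD, n = 4). Over all 4 testes 1 of the 15 was over 2-fold apart, against 16.4% of expressed genes, and none was among replicates 2 to 4, against 4.33%.

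Markers of earlier stages had lower medians. Meiotic entry and differentiating spermatogonia had no fixed order: their mean list levels were 4.22 and 3.95 on the log2 scale, and 3.95 and 3.97 without replicate 3. The 4 genes of meiotic entry had a median of 18.1 FPKM, led by Meioc, which stabilizes the meiotic programme, at 68.5 ± 16.3 FPKM (SD, n = 4). The 7 markers of differentiating spermatogonia had a median of 14.0 FPKM, with the transcription factor Dmrtb1 at 36.7 ± 7.23 FPKM and the receptor Kit at 9.32 ± 0.724 FPKM, the latter named after its values were seen. Of the 10 leptotene and zygotene genes only Hormad1, an axis protein that stays on unsynapsed chromosomes, was above 100 FPKM, at 124 ± 14.5 FPKM. The others were lower: Meiob, a single-strand DNA binding protein of recombination, had 16.3 ± 2.38 FPKM and Dmc1, the meiotic recombinase, 9.93 ± 1.35 FPKM. The 16 markers of undifferentiated spermatogonia had a median of 2.95 FPKM, with 12 expressed. Id4, a marker of spermatogonial stem cells also made in Sertoli cells, was the highest, at 56.1, 27.3, 28.4 and 16.3 FPKM, and Zbtb16 (PLZF) had 8.91, 16.1, 9.88 and 15.8 FPKM. The 2 genes did not order the testes alike. These are levels of the chosen markers and not cell numbers.

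Spermatid genes marked the upper edge of the first wave. Of 13 round spermatid markers 1 was expressed, and the median was 0.11 FPKM. Txndc8, Capza3 and Pfn3 had no fragment in any testis, which at 3 fragments allows at most 0.420 FPKM for any of them in any library. The 1 expressed member was Spaca1, an acrosome membrane protein, with 8.99, 4.01, 1.92 and 2.94 FPKM. Tssk1, a testis-specific kinase, had 0.763, 0.850, 0.934 and 1.14 FPKM. Of 12 elongating spermatid markers 2 were expressed, Gapdhs at 3.93 ± 1.43 and Tssk6 at 1.90 ± 0.904 FPKM (SD, n = 4), and the median was 0.21 FPKM. Prm1, the protamine that replaces histones in the sperm head, had 0.401, 0.580, 0.224 and 0.214 FPKM. The centred list level was -5.17 to -4.91 for round spermatids and 1.46 to 1.86 for pachytene spermatocytes on the log2 scale, far apart in every testis.

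The somatic compartment was dominated by Sertoli cell genes. All 15 Sertoli markers were expressed, 13 above 10 FPKM and 7 above 100 FPKM, with a median of 84.0 FPKM that was the highest of the 19 cell type lists. Beside Clu and Aard, Amhr2, the receptor for anti-Müllerian hormone, had 287, 242, 205 and 179 FPKM, and Cst9, a cystatin, had 130, 239, 225 and 310 FPKM. Amhr2 was highest in replicate 1 and lowest in replicate 4, and Cst9 the reverse. With levels adjusted for GC content the spread (SD, log2 scale) of Amhr2 went from 0.30 to 0.09, and that of Cst9 from 0.53 to 0.55. Sox9, the factor that specifies Sertoli cells, had 22.6, 25.7, 23.9 and 32.4 FPKM, and was named after its values were seen. The centred level of the list ranged by 0.21 on the log2 scale between testes, or by 0.05 without replicate 3, and by 0.61 when the median over its members was taken. The members over 2-fold apart were 5 of 15 where 16.4% of expressed genes were, and 1 of 15 among replicates 2 to 4 where 4.33% were.

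Peritubular smooth muscle came next among somatic cells, with a median of 5.09 FPKM and Myl9 and Acta2, contractile proteins of the tubule wall, at 66.1 to 87.4 FPKM and 49.5 ± 10.3 FPKM (SD, n = 4). Interstitial fibroblast, macrophage, Leydig and endothelial markers had medians of 3.63, 2.07, 1.65 and 1.29 FPKM. The steroidogenic genes of Leydig cells were low: Hsd3b1 had 11.2 ± 8.07 FPKM and Star, which delivers cholesterol to mitochondria, 7.17 ± 0.828 FPKM. Markers of T cells, epididymis, adipocytes and skeletal muscle had medians of 0.12, 0.04, 0.02 and 0.14 FPKM, and Gpx5 of the epididymis and Cidec of adipocytes had no fragment. The exceptions were Plin1 (adipocyte list, 3.27 ± 0.381 FPKM) and Mylpf (skeletal muscle list, 1.53 ± 0.144 FPKM), each the only expressed member of its list.

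**Figure D2:**
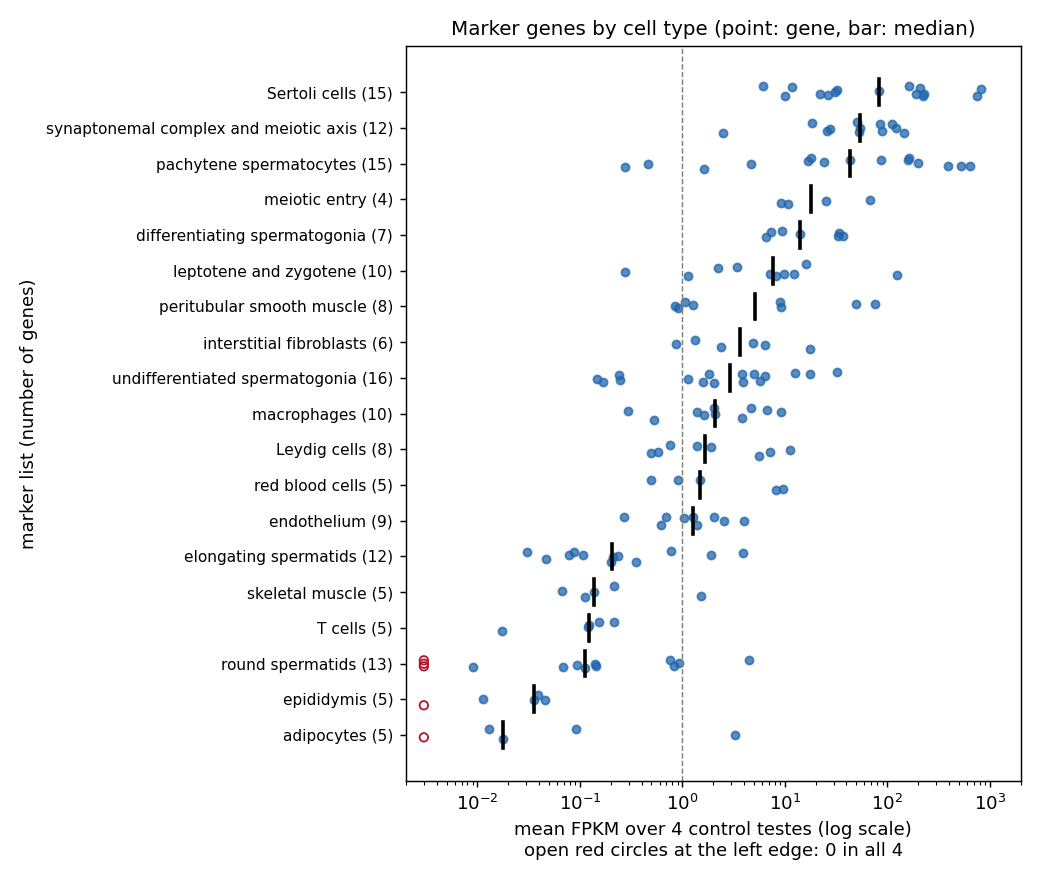
Mean FPKM over the 4 control testes (log scale) of every gene of the 19 cell type and stage lists, 1 point per gene, with a bar at each list's median, a dashed line at 1 FPKM and open circles for genes without a fragment. Sertoli cell, synaptonemal complex and pachytene markers lie highest (medians 84.0, 54.1 and 42.9 FPKM), and the round spermatid median lies at 0.11 FPKM.

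Germ cells carry their own forms of many common proteins, and 14 pairs of a germ cell form and its general counterpart were read side by side. The germ cell form was higher in all 4 testes in 10 pairs, lower in all 4 in 3 pairs and of mixed order in 1. The widest gap was between the cohesin subunits Stag3 (72.0 to 107 FPKM) and Stag2 (8.22 ± 0.961 FPKM), a log2 ratio of 3.36 ± 0.32 (SD, n = 4). Ldhc stood over Ldha by 2.77 ± 0.23, Cyct, the testis cytochrome c, over Cycs by 2.30 ± 0.42, and the TBP-related factor Tbpl1 over Tbp by 2.26 ± 0.31. Hspa2 stood over Hspa8 by 1.06 ± 0.53, ranging from 0.42 in replicate 4 to 1.63 in replicate 1. Ybx2 stood over Ybx1 by 1.19 ± 0.35. Smc1b stood over Smc1a by 2.18 ± 0.32, and Slc25a31, the sperm ADP/ATP carrier, over Slc25a5 by 1.41 ± 0.56. The general forms of these 2 pairs, and Stag2, are X-linked. The respiratory subunit Cox6b2 stood over Cox6b1 by 1.36 ± 0.38 and the calcineurin subunit Ppp3cc over Ppp3ca by 1.11 ± 0.27.

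In 3 pairs the germ cell form was the lower. Ccna1 lay below Ccna2, the cyclin of S phase and mitosis, by a log2 ratio of -3.06 ± 0.24, Ppp3r2 below Ppp3r1 by -1.91 ± 0.45, and Pgam2 below Pgam1 by -0.83 ± 0.57 (SD, n = 4). Gapdhs and Gapdh had no fixed order, with log2 ratios of -0.46, -1.48, 0.44 and 0.88. Gapdh had only 4.76 ± 3.24 FPKM, although it serves glycolysis in every cell. Gapdh has many nearly identical pseudogenes, so its fragments, and with them this pair, are uncertain.

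X-linked genes were lower than autosomal genes in every testis. The 479 expressed X-linked genes had a median of 5.89 FPKM against 9.64 FPKM for 11793 autosomal genes. The difference of medians on the log2 scale was -0.77, -0.74, -0.76 and -0.53 in replicates 1 to 4, a mean of -0.70 ± 0.11 (SD, n = 4). No autosome came near this: against the other autosomes, single autosomes ranged from -0.32 (chromosome 13) to 0.43 (chromosome 18). X-linked genes made up 3.89% of expressed genes and 3.00% of the 1000 most abundant nuclear genes, and 2.38% of protein-coding fragments. The difference shrank to -0.32 when only genes above 5 FPKM were kept, a cut at which single autosomes were not compared. The 11 expressed Y-linked genes lay at -1.90 ± 0.33 (SD, n = 4) from autosomal genes on the same scale. Uba1y, an E1 ubiquitin enzyme made in germ cells, led the single-copy Y genes with a mean of 21.1 FPKM, and the helicase Ddx3y had 13.6 ± 3.35 FPKM. Somatic cells, whose X chromosome is not silenced, contribute to all of these values. Replicate 4, with the smallest X difference, also had the lowest pachytene and the highest Leydig and fibroblast levels. Its genes also ran with GC content, at a median deviation of 0.13 in the class with the least GC and -0.21 in that with the most. The parts of somatic cells and of base composition in the X difference were not tested.

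Several autosomal genes are retrocopies or relatives of X-linked parents and can stand in for them in spermatocytes. Among 8 such pairs the autosomal gene was higher in all 4 testes in 6. Pdha2, the testis subunit of pyruvate dehydrogenase, had 82.7 ± 18.6 FPKM and its X-linked parent Pdha1 4.82 ± 0.680 FPKM, a log2 ratio of 4.05 ± 0.35 (SD, n = 4). Rbmxl2, an RNA-binding protein of spermatocytes, stood over Rbmx by 4.02 ± 1.55, Rpl10l over Rpl10 by 2.03 ± 0.76, Cetn1 over Cetn2 by 1.94 ± 0.43, Rpl39l over Rpl39 by 1.78 ± 0.33, and Cstf2t over Cstf2 by 1.64 ± 0.22. Rbmxl2 had 512, 124, 91.5 and 49.7 FPKM, the widest spread of the 8, and it is a GC-rich gene without introns (66.8% GC). Pgk2 and Utp14b lay below Pgk1 and Utp14a by -1.93 ± 0.16 and -0.85 ± 0.21, in all 4 testes. Pgk1 still had 18.1 ± 3.29 FPKM.

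**Figure D3:**
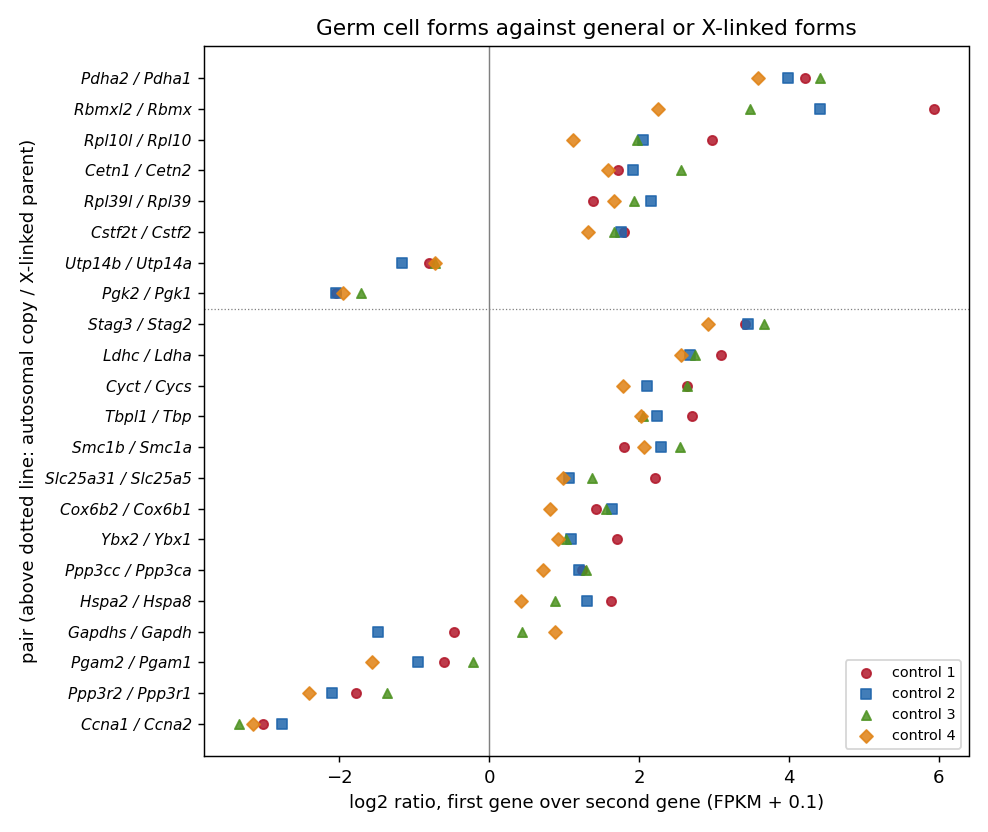
Log2 ratio of the first to the second gene of each pair (FPKM + 0.1) in the 4 control testes, with the 8 pairs of an autosomal gene and its X-linked relative above the dotted line and the 14 pairs of a germ cell and a general form below it. Points right of 0 mean that the autosomal or germ cell form is higher, as in all 4 testes for 6 of 8 and 10 of 14 pairs, while Pgk2, Utp14b, Pgam2, Ppp3r2 and Ccna1 lie to the left.

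Energy metabolism and protein turnover carried germ cell forms as well. Of 94 nuclear genes of oxidative phosphorylation, assembly factors and complex II included, 92 were expressed, with a median of 42.6 FPKM. Cox8c, the testis form of a cytochrome c oxidase subunit, led them with 468, 427, 460 and 318 FPKM. Of 39 proteasome genes 36 were expressed, with a median of 35.1 FPKM, and Psma8, the subunit of the testis proteasome, led with 304, 184, 203 and 165 FPKM. DNA replication genes were present too: all 13 were expressed, with Pcna, the sliding clamp, at 82.5 ± 5.93 FPKM and Mcm7, of the replicative helicase, at 60.5 ± 14.3 FPKM (SD, n = 4). Genes of the hypoxia response and of cholesterol synthesis were modest, with medians of 4.96 and 7.51 FPKM. Of the genes of the heat shock, endoplasmic reticulum stress, p53 and immediate early lists, Hsp90aa1 and Hspa5 were the most abundant, Hspa5, the chaperone BiP, at 141 ± 34.8 FPKM. Fos and Jun, immediate early genes, had 53.5 ± 10.6 and 52.3 ± 9.82 FPKM. Sparc, a secreted matrix protein also made by Sertoli cells, led the extracellular matrix list at 150 ± 27.6 FPKM.

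The spread between the 4 testes was measured as the SD of log2(FPKM + 0.1). For the median expressed gene it was 0.25, of which counting error alone would give 0.06. The spread exceeded the counting error in 11917 genes (96.9%). Without replicate 1 the median was 0.18. The highest library was over 2 times the lowest in 2024 of 12304 expressed genes, or 16.4%. Without replicate 1 the count fell to 533, or 4.33%, and without replicate 2, 3 or 4 it was 1847, 1696 or 1270. Replicate 1 was the highest library in 1111 of the 2024 genes and the lowest in 636, and replicate 4 was the lowest in 917. The 5 steadiest genes above 5 FPKM were Hibadh, Nln, Myo1c, Nrd1 and Fasn. Hibadh, an enzyme of valine breakdown, had 8.63, 8.64, 8.62 and 8.57 FPKM, and Fasn, fatty acid synthase, had 55.2, 55.1, 54.0 and 54.8 FPKM.

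Part of the differences between libraries ran with the base composition of the transcripts and with their length. The 2456 genes with the most GC (56.1 to 74.2%) deviated from the mean of the 4 libraries by a median of 0.18, 0.07, -0.06 and -0.21 on the log2 scale in replicates 1 to 4, and the 2456 genes with the least GC by -0.09, -0.08, 0.02 and 0.13. The 315 expressed genes with 1 exon deviated by 0.18, 0.02, -0.03 and -0.22. By transcript length, the 2456 shortest deviated by 0.06, 0.07, -0.03 and -0.10, and the 2456 longest by -0.10, -0.06, 0.02 and 0.12. The parts of GC content and length were not separated. Genes over 2-fold apart with replicate 1 highest had a median of 56.3% GC against 49.8% in genes not over 2-fold apart, and 8.55% against 1.57% of them had 1 exon. The classes with the most GC were high in replicate 1 and low in replicate 4, and the part of base composition in the variation of single genes was not tested gene by gene. With each library's median deviation per GC class subtracted, an adjustment chosen after the data were seen, the median spread was 0.23 and 1696 genes were over 2-fold apart.

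**Figure D4:**
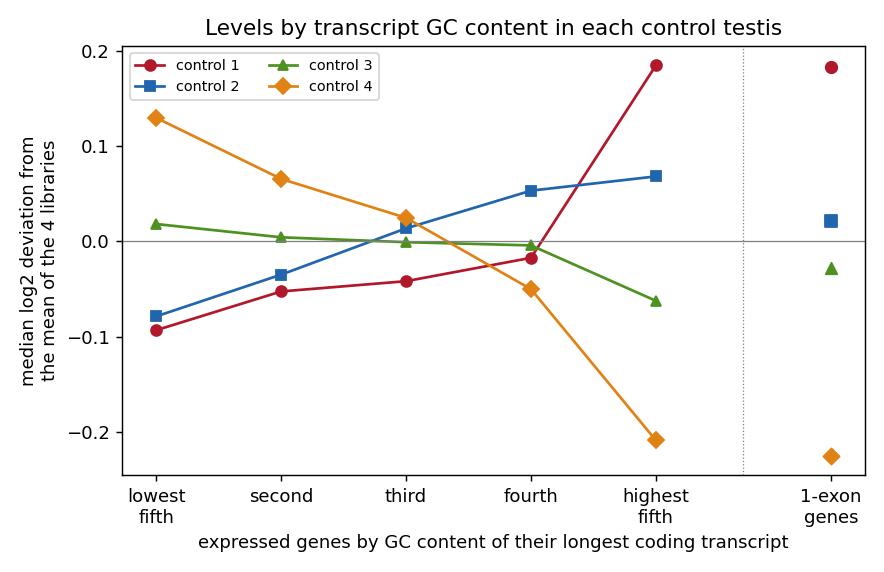
Median log2 deviation of each library from the mean of the 4 libraries, after centring on its median expressed gene, for expressed genes in 5 equal classes of transcript GC content and, at right, for the 315 genes with 1 exon. Replicate 1 rises to 0.18 and replicate 4 falls to -0.21 in the class with the most GC, with replicates 2 and 3 between them.

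The genes furthest above the other 3 testes in replicate 1 were Ier5, A930002H24Rik, Tusc1, Rbmxl2, Ccdc85b, Ppp1r35, Sft2d3, Nrtn, Ier2 and Gadd45g. Ier2, an immediate early gene, had 127 FPKM there and 31.4, 35.1 and 30.2 FPKM in replicates 2 to 4. Tusc1 had 109, 23.6, 18.8 and 9.86 FPKM. Of these 10 genes 6 have 1 exon and 9 lie above the median GC of expressed genes (50.3%). Of the 10 furthest below, 8 were mitochondrially encoded. S100a11, a calcium-binding protein also among them, had 11.2, 55.2, 52.1 and 71.2 FPKM. Lars2, the mitochondrial leucyl-tRNA synthetase, had 71.1, 27.6, 36.3 and 7.41 FPKM, the same order as Gm23935 with 69312, 21320, 26843 and 2915 FPKM. Genes annotated as ribosomal RNA took 0.295, 0.102, 0.107 and 0.0215% of all fragments, again in that order. Why these values moved together was not tested. Gm23935, named after its values were seen, is annotated over 57 bases only, and its FPKM is not a level to set beside those of longer genes.

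Some programs differed between testes with or without replicate 1. The interferon response was among the most variable. Its 12 genes differed by 1.89 on the log2 scale between the highest and lowest testis, with and without replicate 1, and 8 of its 10 expressed members were over 2-fold apart in both sets, where 16.4% and 4.33% of expressed genes were. Isg15, an ubiquitin-like modifier, had 9.79, 10.5, 2.20 and 1.21 FPKM. Irf7, the factor that amplifies interferon transcription, had 5.92, 10.3, 3.56 and 1.16 FPKM. Bst2 (tetherin) had 41.2, 50.6, 22.2 and 15.7 FPKM, and Oasl2 had 15.1, 20.1, 11.1 and 5.44 FPKM. Replicates 1 and 2 were high and replicates 3 and 4 low in each of these genes, and replicate 2 was the highest in 9 of the 10. H2-T23, a non-classical MHC class I gene, had 12.4, 11.7, 4.34 and 1.88 FPKM. Rtp4, an interferon-induced chaperone, had 7.84, 8.20, 4.32 and 1.55 FPKM. Neither is on the list. Both were picked from the 10 most variable genes of replicates 2 to 4 and are no separate support for the program. Eno1b, Lars2 and Aqp8, among the same 10, were also lowest in replicate 4. Macrophage markers summed to 22.7, 38.5, 28.4 and 40.4 FPKM and did not follow the order of the interferon genes. All 5 T cell markers were below 1 FPKM on average. The part of immune cells in the interferon levels was not tested.

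Meiotic entry was the germ cell list with the widest range over the 4 testes. Its 4 genes differed by 1.38 on the log2 scale, 0.50 without replicate 3 and 0.91 without replicate 2. Stra8, the retinoic acid target that licenses meiosis, had 5.92, 4.53, 19.8 and 12.9 FPKM. Gm4969 (Meiosin), its partner, had 6.61, 5.63, 18.5 and 5.82 FPKM. Rec8, a meiotic cohesin subunit, had 32.9, 16.2, 35.6 and 16.7 FPKM. Replicate 3 was the highest in 3 of the 4 genes and replicate 2 the lowest in all 4. Stra8 was also among the 10 most variable genes of replicates 2 to 4. Division genes moved with replicate 3 as well: it was the highest testis for 7 of 8, and the list's range was 0.72, or 0.20 without it. Plk1, the polo-like kinase that drives exit from prophase and mitosis, had 6.18, 13.1, 39.2 and 12.4 FPKM. Aurka, a spindle kinase, was lowest in replicate 4 and had a mean of 27.8 ± 7.88 FPKM, and Nek2, which was highest in replicate 1, 88.2, 48.8, 59.5 and 39.1 FPKM. The synaptonemal complex list ranged by 0.17 and the leptotene and zygotene list by 0.20, or by 0.33 and 0.26 with GC-adjusted levels, and the latter by 0.04 without replicate 3.

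Several interstitial and vascular programs were highest in replicate 4. This was not particular to them: peritubular smooth muscle was highest there for 5 of 6 expressed genes and Sertoli markers for 8 of 15. Macrophage markers were highest in replicate 2 for 5 of 8 expressed genes. The globins, which mark red blood cells left in the vessels, had the clearest step: Hbb-bs had 5.37, 8.19, 6.66 and 18.4 FPKM and Hba-a1 3.76, 7.27, 4.96 and 16.5 FPKM. Leydig cell genes followed in part. Hsd3b1, a steroid dehydrogenase, had 5.76, 8.27, 7.66 and 23.2 FPKM and Lhcgr, the receptor for luteinizing hormone, 0.687, 1.36, 0.952 and 4.64 FPKM, both with replicate 4 far above the others. Star had 7.33, 6.38, 6.70 and 8.26 FPKM and Hsd17b3, which makes testosterone, 2.80, 4.60, 9.06 and 5.75 FPKM, so that the enzymes of the list did not all move together. Dcn, a proteoglycan of fibroblasts, had 8.35, 20.3, 11.7 and 30.3 FPKM, and Pdgfra, a fibroblast and progenitor receptor, 4.17, 4.02, 3.42 and 7.85 FPKM. Replicate 4 was the highest testis for 3 of 3 expressed red blood cell genes, 4 of 5 Leydig, 5 of 5 fibroblast and 5 of 6 endothelial genes. The list ranges were 1.61, 0.88, 1.31 and 0.78 on the log2 scale. The Leydig range was 1.63 over members above 1 FPKM and 1.92 as the median over members. Without replicate 4 the ranges were 0.68, 0.12, 0.56 and 0.53. The expressed Leydig members alone had centred levels of -2.03, -1.41, -1.46 and -0.40 in replicates 1 to 4. On these members replicates 1 to 3 were further apart than 0.12. The same testis had the lowest pachytene markers. The part of interstitial RNA in the pachytene level was not tested.

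**Figure D5:**
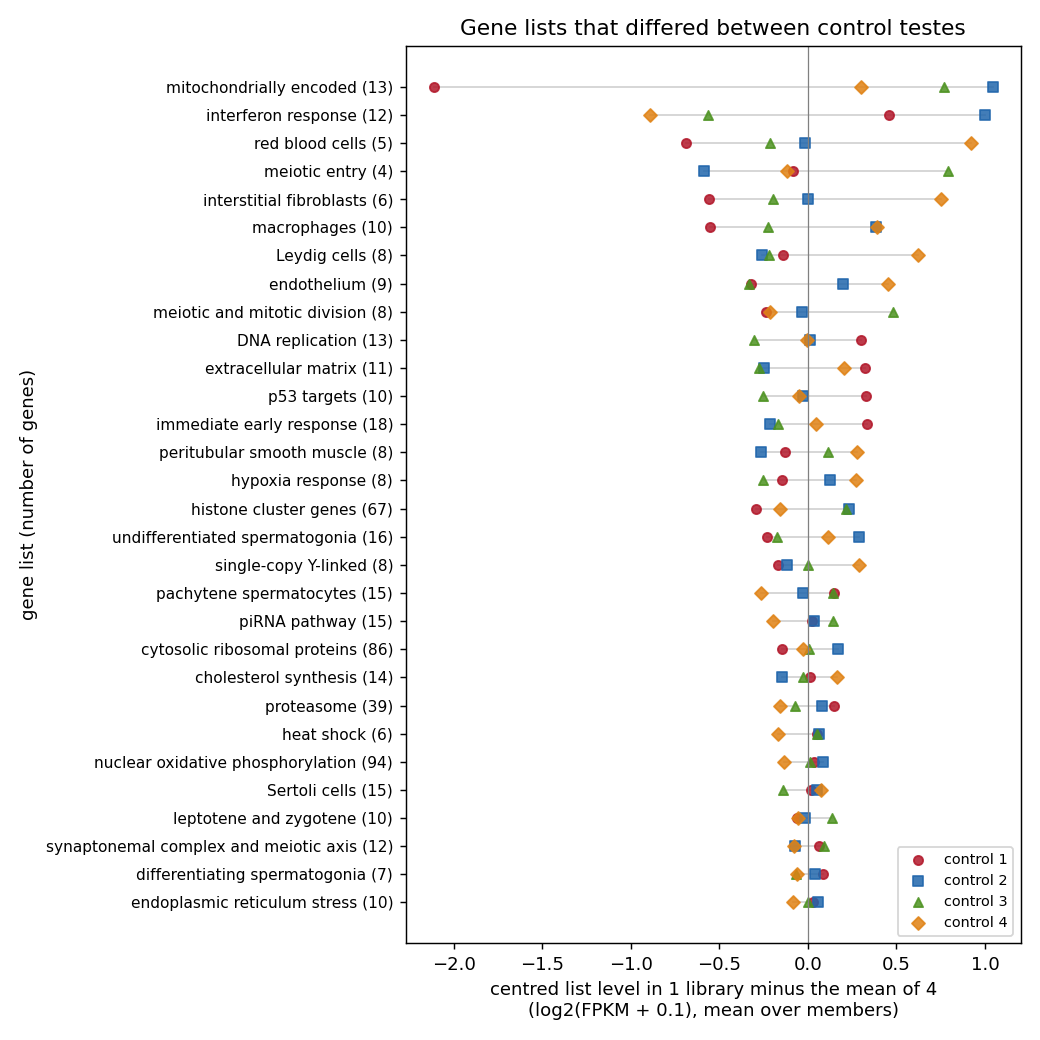
For each gene list with at least 3 expressed members, the centred list level of each control testis minus the mean of the 4, on the log2 scale, ordered by range. Mitochondrially encoded genes are low in replicate 1 (range 3.15, and 0.74 without it), interferon response genes are high in replicates 1 and 2, meiotic entry genes in replicate 3, and red blood cell, fibroblast and Leydig genes in replicate 4.

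Among the other variable genes of replicates 2 to 4, Aqp8, a water channel, had 11.1, 21.1, 6.27 and 4.13 FPKM. Eno1b, an enolase gene, had 28.7, 19.4, 4.08 and 3.61 FPKM and Gm11808, a gene with 1 exon, 5.90, 12.7, 9.52 and 71.2 FPKM, and both may share fragments with close relatives. Gm9887, with 1 exon and 74.2% GC, had 18.6, 3.71, 5.74 and 1.27 FPKM. The 533 genes over 2-fold apart among replicates 2 to 4 were mostly low: their median was 2.64 FPKM, and 150 of them had a mean above 5 FPKM. Their median GC content was 52.4% against 50.3% for expressed genes.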

How the data were processed

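RNA from 1 whole testis per mouse was sequenced as paired-end libraries by a service company. Build GRCm38 (mm10) is given in the submitters' processing notes, and the aligner, counter and strand setting are not given in the sources used here. The authors deposited FPKM for 54532 genes, with lengths, positions and biotypes. Only the 4 control columns were used, no column lacked a sample (0), and the 4 single-library tables equalled the joint table. Whole fragments were recovered from FPKM and gene length (100% whole within 0.02), which gave 13978342 to 17867570 per library. These limit the counting error only.

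Levels were log2(FPKM + 0.1). Expressed means protein-coding with a mean above 1 FPKM, and spread is the SD over 4 libraries. A list level is the mean over its members, minus the library's median over expressed genes where called centred. No group was compared, and the only test was Dixon's for a library apart. GC content and exon numbers came from GENCODE vM21 (99.9% of gene identifiers matched) and promoters from RefSeq. For 2 list symbols with several entries the longest protein-coding model was taken.

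Named genes are the 15 highest nuclear genes, the mitochondrially encoded genes, up to 4 highest members of each of 36 lists, members at 0, both genes of 22 pairs, the 10 largest and 5 smallest spreads above 5 FPKM, the 10 furthest above and below in replicate 1, and Spdya. A gene that the rule names is not reported here. Members and lists were chosen with earlier results of these data known. Alternatives were other pseudocounts, filters, scalings and leaving out each library. Scripts ran in Python 3.11.15 with numpy 2.4.6 and pandas 2.3.3 and were tested on simulated data.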

Additional observations from a re-analysis of the deposited data

Results flagged for a closer look

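Of 93 values examined over the 4 testes, 15 had 1 testis farther from the others than Dixon's 95% limit for 4 samples allows, and chance alone flags about 1 in 20 such groups. Many of the 15 share genes and are not independent of each other.

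Replicate 1 was the low one in 9. Its mitochondrially encoded share was 0.446% (3.02 to 3.44% in the others), and its 100 most abundant genes held 10.1% of fragments (12.1 to 12.2%). Without mitochondrially encoded genes the latter share was 9.95, 9.47, 9.90 and 9.53% in replicates 1 to 4, with replicate 1 no longer low. On the scale of log2(FPKM + 0.1) replicate 1 had mt-Co1 at 10.77 against 13.12 to 13.38 and mt-Cytb at 9.01 against 12.18 to 12.23. It had mt-Nd1 at 8.77 against 11.53 to 11.71, and mt-Nd2 at 7.40 against 11.05 to 11.17. Its mt-Nd4 was at 5.84 against 10.47 to 10.63, mt-Nd5 at 7.61 against 10.37 to 10.52, and mt-Nd4l at 1.98 against 4.13 to 4.46.

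Replicate 4 stood apart in the other 6. Its X-linked level relative to autosomes was -0.53 (-0.77 to -0.74 in the others), and its centred Leydig cell level was -1.69 (-2.58 to -2.45). Over the expressed Leydig members alone the levels were -2.03, -1.41, -1.46 and -0.40 in replicates 1 to 4, with replicate 1 also away from replicates 2 and 3. Replicate 4 was the low one for the centred heat shock level, at 1.53 against 1.75 to 1.76. With GC-adjusted levels the heat shock list was at 1.66, 1.73, 1.79 and 1.63 in replicates 1 to 4, with replicate 4 near replicate 1. The log2 ratio of Ppp3cc to Ppp3ca was also lowest in replicate 4, at 0.71 against 1.20 to 1.29. In replicate 4 the near-identical tubulin genes Tuba3b and Tuba3a were at 9.18 against 9.81 to 9.88 and at 9.12 against 9.74 to 9.80. The causes were not tested.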

How the results depend on the processing

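All 22 pair ratios moved by less than their spread between testes after TPM rescaling, a change that largely cancels in a ratio. Leaving out 1 of 4 libraries cannot move a mean by its SD, so those runs could not have come out otherwise. Gapdhs over Gapdh, at -0.15, was 0.29 without replicate 2. The count of genes over 2-fold apart, 2024, was 533 to 1847 when 1 library was left out (533 without replicate 1 and 1270 without replicate 4), 3847 after rescaling to TPM, and 1135 with a mean above 5 FPKM. TPM rescaling moved the libraries by 1.48, 1.73, 1.71 and 1.94 on the log2 scale in replicates 1 to 4, and the FPKM of replicate 1 sums to 359315, of which Gm23935 alone makes 69312. It moved 36 of 36 list levels and 4 of 36 list ranges. The median over members moved 21 levels and 17 ranges, and a pseudocount of 1 moved 21 and 8. Members above 1 FPKM moved 5 of 34 ranges, and leaving out 1 library moved 30 of 144. Leaving out 1 library moved 0 of 144 levels. A level counted as moved only beyond 1 SD, which leaving out 1 of 4 values cannot reach, so this 0 was fixed in advance. The share of the 10 most abundant genes was 9.24% by summed FPKM and 2.16% without mitochondrially encoded genes, and of the 100 most abundant 19.9% and 9.71%. The X-linked difference was -0.32 above 5 FPKM, and -0.77 to -0.68 with 1 library left out. With GC-adjusted levels, an alternative chosen after seeing the data, 2 of 36 list ranges moved, synaptonemal complex and axis (0.33) and single-copy Y-linked (0.25), and 1696 genes were over 2-fold apart. The causes were not tested. No paired analysis was possible because only 1 group was described. Depth limits values near 0.0552 to 0.0763 FPKM, the worth of 1 fragment on a gene of 1 kilobase.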

Other observations

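Among the 59 of the 100 most abundant nuclear genes that stood on no list, 5 are given here, chosen after their values were seen. Rsph1, a radial spoke protein of the axoneme, had 275, 445, 484 and 325 FPKM in replicates 1 to 4. Ropn1l, which also sits at the radial spokes, had 393, 247, 249 and 153 FPKM, and Meig1, needed to build the sperm tail, had 125, 198, 228 and 198 FPKM. Tex101, a germ cell surface glycoprotein, had 269, 342, 405 and 245 FPKM. Inha, the inhibin subunit that Sertoli cells secrete, had 245, 229, 179 and 190 FPKM.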
